A study of Gallus gallus with 17 samples.

Results

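The genes described here encode subunits of mitochondrial respiratory complexes II, III and IV, of the ATP synthase (complex V) and of cytochrome c, in adipose tissue of young chickens of 3 lines. They were taken by their symbol in the platform's probe annotation: SDHA to SDHD, CYC1, CYCS, and every symbol that starts with UQCR, COX4, COX5, COX6, COX7, COX8 or ATP5. The rule found 33 of the 13008 genes with 1 annotated symbol, and each gene was read from the probe set (a group of short probes that reports on 1 transcript) with the highest mean over the 17 arrays. Of these, 2 belong to complex II, 8 to complex III, 1 is cytochrome c, 8 belong to complex IV and 13 to complex V. ATP5S, later named DMAC2L, met the rule by its old symbol without being a subunit, so it was counted as a member but kept out of the medians of the complexes. COX7A2L, known in mammals as a factor that joins complexes III and IV, was counted with complex IV and stayed in its medians. SDHB, SDHC, CYC1, COX4I2, COX6A2 and COX7A1 were not analysed here, and neither were the subunits encoded in mitochondrial DNA. A probe set annotated to both COX7A2 and TMEM30A was left unnamed, so no pair of tissue-specific paralogs could be set side by side.

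Complex II, succinate dehydrogenase, is at once an enzyme of the tricarboxylic acid cycle and an entry point for electrons into the respiratory chain, and all its subunits are encoded in the nucleus. Complex III passes the electrons to the small carrier cytochrome c, complex IV hands them to oxygen, and complex V makes ATP from the proton gradient that the chain builds. In adipose tissue the chain oxidises what fatty acid, glucose and amino acid breakdown supply, and the nuclear genes of its subunits tend to be expressed together.

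Total RNA from adipose tissue of male birds aged 3 weeks was hybridised to Affymetrix chicken arrays, 1 array per sample: 6 arrays of a broiler line, 5 of the line Fayoumi M 5.1 and 6 of the line Leghorn GHs 13. The study's design text asks which pathways go with leanness across these lines, the broiler being the meat-type, fatter bird. No treatment, transgene or deletion is named for any line, and neither the fat depot nor whether the lines were raised together is given in the labels. Arrays of 1 line are labelled biological replicates without a word on how each bird or sample was taken, so a p-value covers the spread among these samples only, and line and any rearing group cannot be told apart. In such a tissue extract, fewer cells of a type and less RNA per cell cannot be told apart.

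Several arrays stood apart before any gene was considered. All 7 adipocyte markers lay above background (2.29 on the log2 scale) on every array. The 16 skeletal muscle markers, given as their median level relative to each gene's mean over the arrays, stood at 8.41 on the array labelled Leghorn 1. Fayoumi 2 and 3 followed with 1.46 and 0.97, and the remaining arrays ran from -1.05 to -0.48. The adipocyte markers stood at -1.36 on Leghorn 1. On the first principal component, which held 52.9% of the variance, 5 arrays (broiler 2, 3 and 4 and Leghorn 3 and 6) lay apart from the other 12. They also had a lower 3' to 5' difference of the ACTB control probe sets, a sign of RNA quality or labelling, at 1.49 to 1.92 against 1.91 to 2.70. That difference also moved with the line, with means of 2.31 in Fayoumi, 1.93 in broiler and 1.99 in Leghorn, and that of the GAPDH probe sets had means of 1.37, 1.15 and 1.04. On the 5 arrays the macrophage markers had a mean relative level of 0.45 against -0.16 on the other 12, and the endothelial markers -0.37 against 0.23. The part of these in the results was not tested. Finally, the arrays labelled broiler 1 and Leghorn 2 went against their labels: on a scale set by other arrays of both lines, where 0 is broiler and 1 is Leghorn, they lay at 1.01 and 0.0791, while the remaining broiler arrays lay at 0.000228 to 0.115 and the remaining Leghorn arrays at 0.857 and above. Labels were kept as given, and results are given with and without these arrays.

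Fayoumi adipose tissue carried lower mean levels of most of these genes than broiler tissue did, but a single gene, COX7A2L, passed the test. The Fayoumi mean was the lower one for 30 of 33 members. The median of the members' log2 differences was -0.36 beside -0.00034 over all genes. A share of all genes is not given, since genes tied at the floor of the scale were counted as lower through rounding. The 30 included COX7B, above background on 1 array, at -0.013. Members with a bright signal, a mean over 10 on the log2 scale, were lower in 25 of 25 cases with differences from -0.73 to -0.11, whereas 51.4% of the 1876 genes this bright were lower. The 8 dimmer members had a median difference of -0.020. In limma's moderated test 1 member was called lower and none higher at an adjusted p under 0.05, where 0.714% of all probe sets were called and 0.356% were called lower. At an unadjusted p under 0.05 there were 16 members, or 48.5%, against 10.2% of all probe sets. Shares of all probe sets include those at the floor of the scale. A fit of the 21177 probe sets above background on at least 5 arrays had 3828 at that p, a larger share than the 10.2%, with 2.38% called. Every Fayoumi array lay below every broiler array for 6 members (SDHD, COX4I1, COX6A1, COX7A2L, ATP5G1 and ATP5G3), or 18.2%, against 1.52% of all probe sets.

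The same 5 Fayoumi arrays also read lower than the 6 Leghorn arrays. Again 30 of 33 members had the lower mean in Fayoumi, and the members' log2 differences had a median of -0.33 beside 0 over all genes. As above, no share of all genes is given. Counted among the 30 was COX7B, above background on 1 array, at -9.2e-05. All 25 bright members were lower, with differences from -0.73 to -0.0071, beside 44.8% of all genes this bright. COX7A2L was called lower and no member was called higher, where 0.626% of all probe sets were called and 0.271% were called lower. At an unadjusted p under 0.05 there were 15 members, or 45.5%, against 7.4% of all probe sets. The fit of 21177 probe sets above background on at least 5 arrays had 2701 at that p, a larger share than the 7.4%, with 2.01% called. Without overlap between the arrays were 8 members (SDHA, SDHD, COX7A2L, ATP5G1, ATP5G3, ATP5H, ATP5O and ATP5PB), or 24.2%, against 1.05% of all probe sets. Because both comparisons rest on the same Fayoumi arrays, they are not independent of each other.

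**Figure D1:**
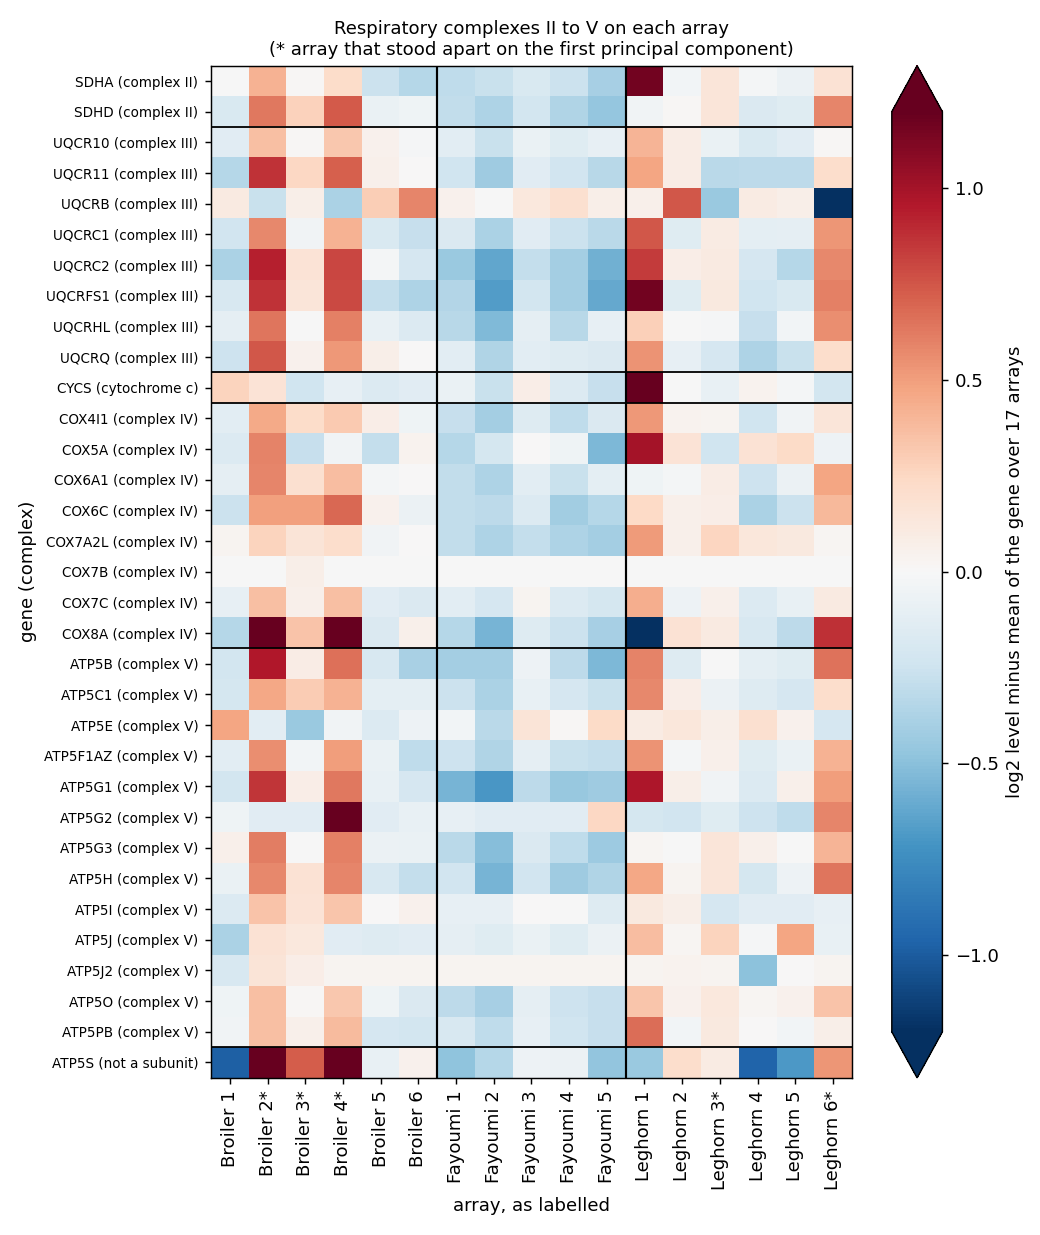
Level of each of the 33 genes (rows, by complex) on each of the 17 arrays (columns, by line), as log2 level minus the mean of that gene over all arrays; the scale ends at 1.2 in both directions. The 5 Fayoumi columns are blue for nearly all bright genes, broiler 2 and 4, Leghorn 6 and Leghorn 1 are red, and Leghorn 1 is red for CYCS and SDHA but blue for COX8A.

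Leghorn and broiler tissue gave no called difference in these genes. Of the 33 members, 20 had a lower and 13 a higher mean in Leghorn, and 48.2% of all genes were lower. The median of the members was -0.040 on the log2 scale, and the lowest adjusted p was 0.852. Every member overlapped between the lines, where 0.0133% of probe sets were lower in Leghorn without overlap. limma called 0 probe sets in the whole table for this pair of lines (0% of those tested), and at an unadjusted p under 0.05 it held 1840 probe sets, or 4.88%, and 2 members. Those were ATP5I, a small membrane subunit of the ATP synthase, at -0.19 with an SE of 0.083, and ATP5J, its coupling factor 6, at 0.26 with an SE of 0.106. The SE of the members reached 0.389, for ATP5S. The count of 0 over the table depended on broiler 1 and Leghorn 2, the arrays at odds with their labels. Without them, a setting added after seeing the data, 661 probe sets (1.75%) and 0 members were called.

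The contrast with broiler depended on the arrays that stood apart. Leaving out those 5 arrays kept only broiler 1, 5 and 6 of that line, and broiler 1 went against its label. The median difference between Fayoumi and broiler was then -0.13 rather than -0.36, with 28 of 33 members lower. There 0 members were called, where 0.504% of probe sets were called. An unadjusted p under 0.05 was found for 4 members, beside 7.55% of all probe sets. With the state of the 5 arrays as a term in the model, the median was -0.22 with 30 members lower. There 0 members were called, where 0.764% of probe sets were called. Without the 5 arrays, the contrast with Leghorn moved less, to a median of -0.32 with 29 members lower. There 2 were called (COX7A2L and ATP5G3), where 1.05% of probe sets were called. The Leghorn arrays kept included the muscle-marked Leghorn 1, on which the members had a median relative level of 0.44. On the other Leghorn arrays kept it ran from -0.17 to 0.036, against -0.36 to -0.11 in Fayoumi. No fit left out Leghorn 1 as well as the 5 arrays. Between Leghorn and broiler, leaving out the 5 arrays turned the median from -0.040 to 0.11, with 6 of 33 members lower and Leghorn 1 again kept. Without Leghorn 1 alone, the median between Fayoumi and Leghorn was -0.28 with 28 members lower and 1 called, where 0.679% of probe sets were called. With broiler 1 and Leghorn 2, the arrays at odds with their labels, left out, the medians were -0.43 against broiler and -0.33 against Leghorn. In each, 1 member was called, where 1.82% and 1.44% of probe sets were called.

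By complex, the medians against broiler were -0.43 for complex II, -0.40 for complex III, -0.41 for complex IV and -0.34 for complex V, and -0.11 for cytochrome c alone. Against Leghorn they were -0.46, -0.30, -0.30, -0.36 and -0.30 in the same order, with cytochrome c last. Without the 5 arrays that stood apart, the medians against broiler were -0.16 for complex II, -0.17 for complex III, -0.19 for complex IV, -0.079 for complex V and -0.13 for cytochrome c. The complex IV medians include COX7B, which was above background on 1 array. Differences between the complexes were not tested. The plot of differences by gene shows these values with their errors.

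**Figure D2:**
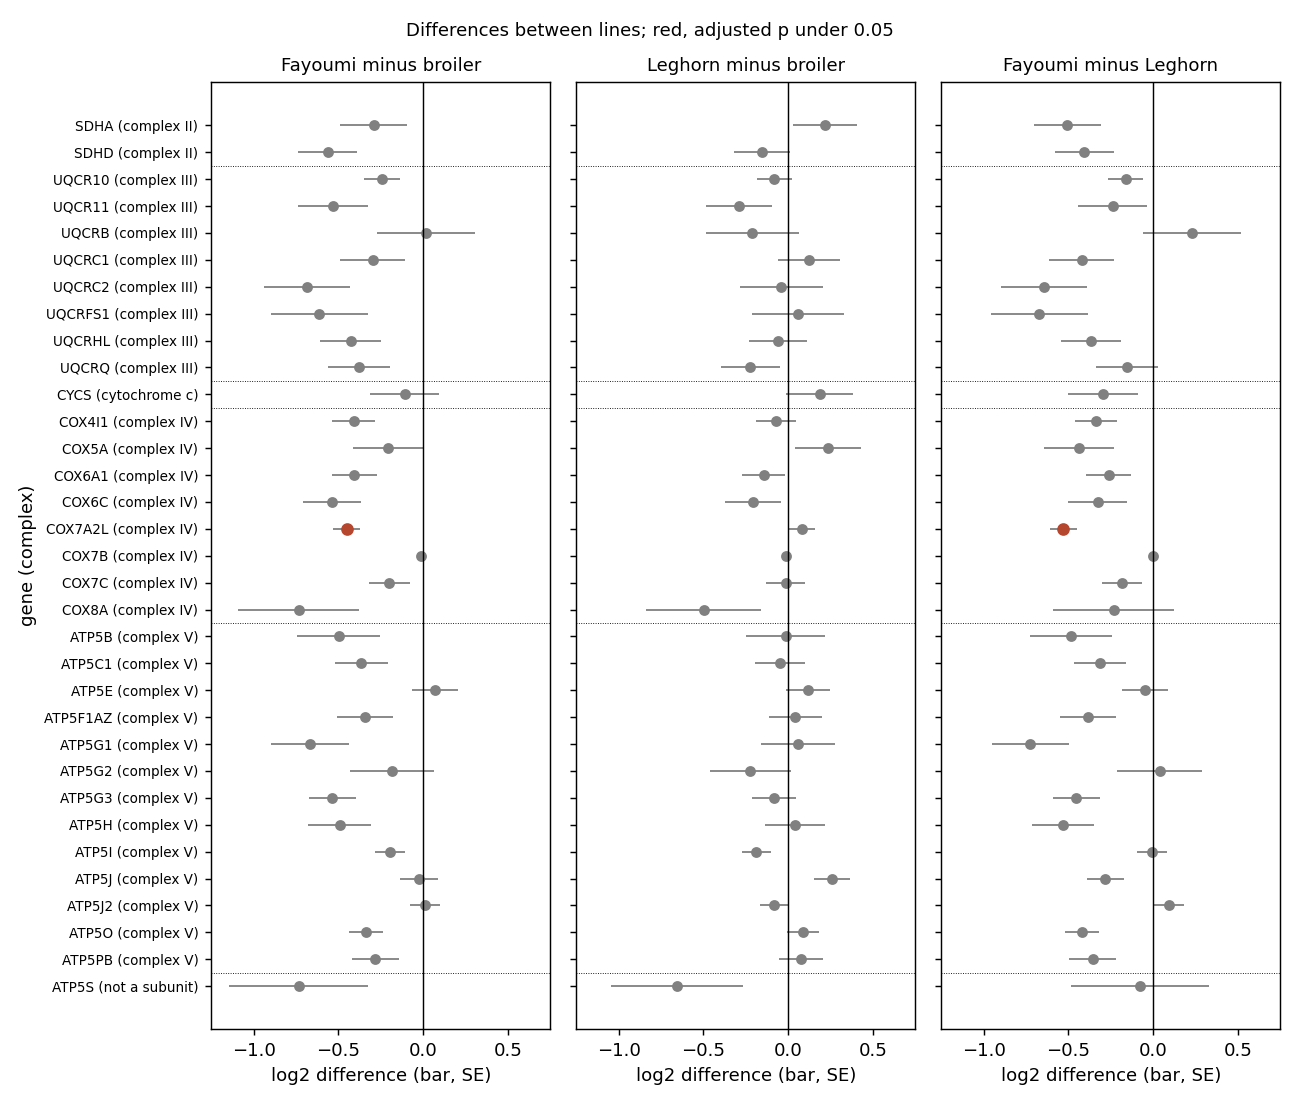
Log2 difference of each of the 33 genes in the 3 comparisons of lines, with bars of 1 SE from limma's fit and genes ordered by complex. In each Fayoumi panel 30 of 33 points lie left of 0, with medians of -0.36 and -0.33, and the points scatter around 0 between Leghorn and broiler, and COX7A2L is the only gene in red, with an adjusted p under 0.05.

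In complex II, SDHA carries the flavin and the site where succinate is oxidised, and SDHD anchors the enzyme in the inner membrane. SDHD ran from 11.89 over a median of 12.18 to 12.81 in broiler, read 11.78, 11.70, 11.85, 11.71 and 11.61 on the Fayoumi arrays, and ran from 11.90 over 12.06 to 12.66 in Leghorn. The Fayoumi arrays lay below all others, though the highest of them came close to the lowest broiler and Leghorn arrays. The difference was -0.56 (SE 0.174, adjusted p = 0.218) against broiler and -0.41 (adjusted p = 0.589) against Leghorn, neither past the threshold. SDHA ran from 11.36 over 11.71 to 12.12 in broiler, read 11.40, 11.44, 11.52, 11.45 and 11.31 in Fayoumi, and ran from 11.64 over 11.76 to 12.86 in Leghorn. Fayoumi and broiler overlapped here and Fayoumi and Leghorn did not, with a difference of -0.51 (SE 0.197, adjusted p = 0.478) against Leghorn. The highest SDHA level, 12.86, was that of Leghorn 1, and the other Leghorn arrays reached no more than 11.87.

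The differences of complex III came with wide errors. UQCRC2, a core protein on the matrix side, ran from 10.57 over 11.02 to 11.89 in broiler, read 10.50, 10.33, 10.67, 10.54 and 10.38 in Fayoumi, and ran from 10.61 over 11.04 to 11.80 in Leghorn. The groups touched at their edges, and broiler 2 and 4 and Leghorn 1 made up the upper end. Its difference was -0.68 (SE 0.255, adjusted p = 0.348) against broiler and -0.64 (adjusted p = 0.500) against Leghorn. UQCR11, a small subunit at the edge of the complex, ran from 12.52 over 13.02 to 13.73 in broiler, read 12.63, 12.45, 12.74, 12.64 and 12.53 in Fayoumi, and ran from 12.54 over 12.76 to 13.34 in Leghorn. Broiler 1, at 12.52, lay among the Fayoumi values, and the differences were -0.53 (SE 0.206, adjusted p = 0.380) and -0.24 (adjusted p = 0.802).

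The other 6 genes of complex III differed from broiler by -0.61 to 0.017. UQCRFS1, the Rieske iron-sulfur protein that takes electrons from ubiquinol, stood at -0.61 with an SE of 0.286, and UQCRC1, the other core protein, at -0.30. The hinge protein UQCRHL, which helps cytochrome c dock, stood at -0.43, the small subunits UQCRQ and UQCR10 at -0.38 and -0.24. UQCRB, which lines the ubiquinone site, was the exception at 0.017. Its probe set was dim, with a mean of 7.38, and on Leghorn 6 it read 5.99 while Leghorn 2 read 8.13. None of the 6 passed the test, and no complex III gene kept all Fayoumi arrays below all broiler arrays.

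Cytochrome c, the mobile carrier between complexes III and IV, did not follow the lines. CYCS ran from 12.15 over 12.27 to 12.65 in broiler, read 12.30, 12.11, 12.47, 12.22 and 12.10 in Fayoumi, and ran from 12.16 over 12.37 to 13.58 in Leghorn. All 3 lines overlapped, with differences of -0.11 (SE 0.206, adjusted p = 0.986) against broiler and -0.30 (adjusted p = 0.802) against Leghorn. The top value, 13.58, was again Leghorn 1, and the remaining Leghorn arrays ended at 12.43. Unlike the complexes, CYCS was no higher on the 3 broiler arrays that stood apart than on the other 3, with a mean difference of -0.044.

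Complex IV held the called gene. COX7A2L, which is related to the small subunit COX7A and is known in mammals as a factor that joins complexes III and IV into supercomplexes, ran from 11.09 over 11.23 to 11.40 in broiler and from 11.16 over 11.26 to 11.64 in Leghorn. On the Fayoumi arrays it read 10.83, 10.77, 10.85, 10.77 and 10.73. The Fayoumi values formed a narrow group below every other array, while broiler and Leghorn overlapped. COX7A2L was lower in Fayoumi than in broiler by a log2 difference of -0.45 (SE 0.079, 1.37-fold, adjusted p = 0.0154), from means of 10.79 ± 0.050 (SD, n = 5) and 11.24 ± 0.123 (SD, n = 6). Against the Leghorn mean of 11.32 ± 0.180 (SD, n = 6) it was lower by a difference of -0.53 (1.44-fold, adjusted p = 0.00420).

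The call came with a small error rather than an unusually large difference. Of the members, 11 had a larger negative difference from broiler than COX7A2L, and 4 had a larger one from Leghorn, but only COX7B, which lay below background on 16 arrays, had a smaller SE. Relative to the median of the other subunits on the same array, COX7A2L ran from -0.26 to 0.18 in broiler, from -0.17 to -3.2e-05 in Fayoumi and from -0.25 to 0.30 in Leghorn, so the lines overlapped on that measure. Both calls held whichever single array was left out, with adjusted p-values up to 0.0498 against broiler (without Fayoumi 2) and up to 0.0169 against Leghorn. Against broiler the call was lost without the 5 arrays that stood apart, at -0.34 (adjusted p = 0.207), and with their state as a term, at -0.41 (adjusted p = 0.0526). Against Leghorn it held in both settings, at -0.55 (adjusted p = 0.0159) and -0.50 (adjusted p = 0.00798).

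**Figure D3:**
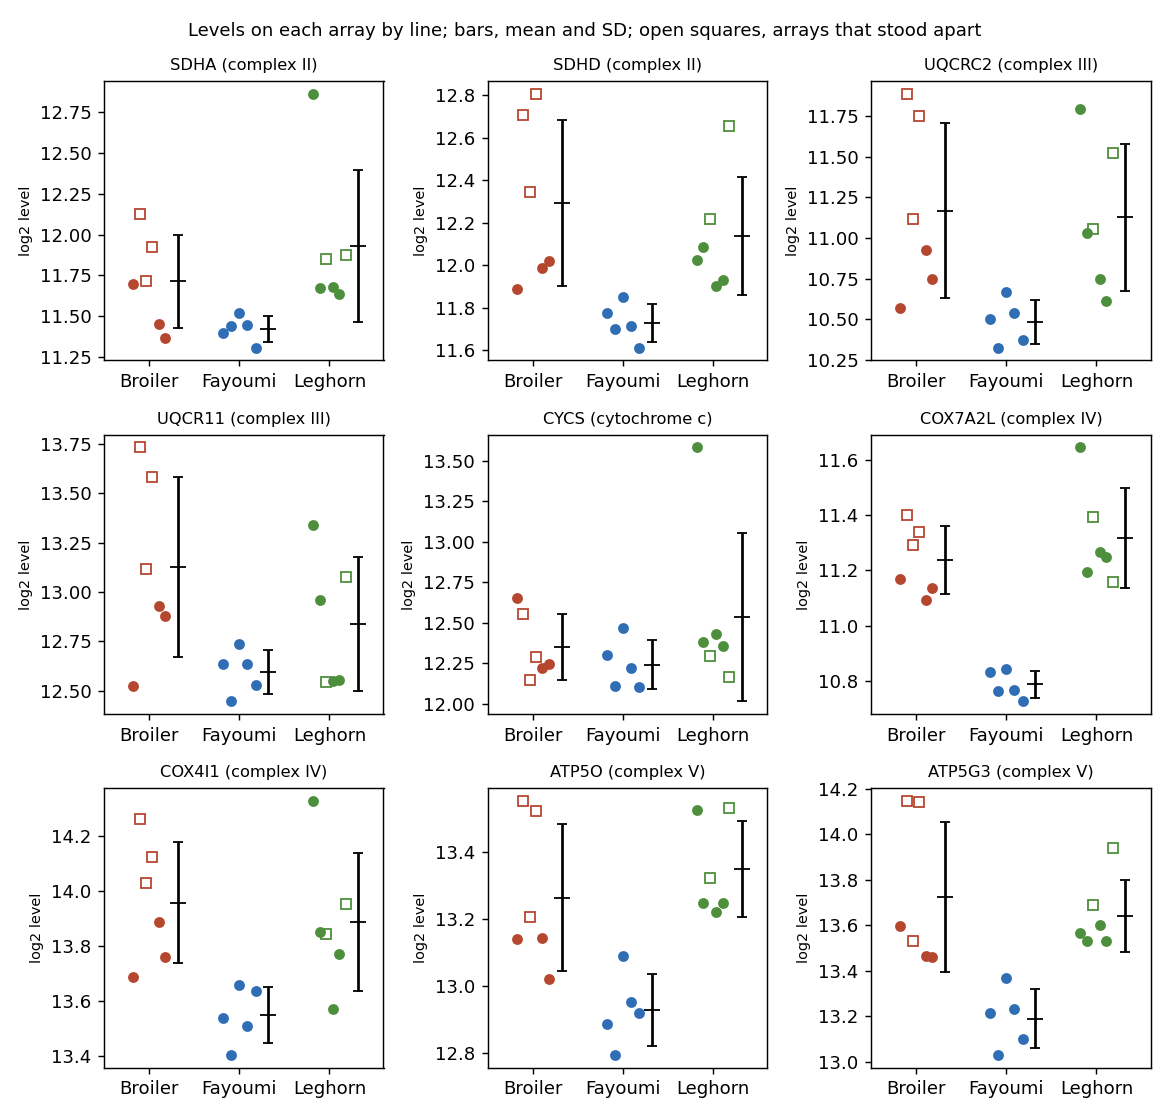
Log2 levels on each of the 17 arrays of the 9 genes described in full, by line; black bars give mean and SD, and open squares mark the 5 arrays that stood apart. The 5 Fayoumi points of COX7A2L, at 10.73 to 10.85, lie below all broiler and Leghorn points, which start at 11.09, and in most other panels the open squares form the upper part of the broiler group.

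COX4I1, the nuclear subunit through which ATP is known in mammals to regulate complex IV, ran from 13.69 over 13.96 to 14.26 in broiler, read 13.54, 13.40, 13.66, 13.51 and 13.64 in Fayoumi, and ran from 13.57 over 13.85 to 14.33 in Leghorn. Fayoumi lay just below broiler without overlap and overlapped Leghorn, where Leghorn 4 at 13.57 fell within the Fayoumi values. Its difference was -0.41 (SE 0.124, adjusted p = 0.201) against broiler and -0.34 (adjusted p = 0.416) against Leghorn. COX6A1 and COX6C, both small nuclear-encoded subunits, differed from broiler by -0.41 (adjusted p = 0.260) and -0.54 (adjusted p = 0.244), and COX7C by -0.20. COX8A, a small transmembrane subunit, had the largest negative difference of the complex, -0.73, with the largest error, an SE of 0.356. It spread from 10.32 to 11.89 over the broiler arrays alone, and it was the 1 member lowest of all arrays on Leghorn 1, at 9.38. COX5A, a subunit on the matrix side, was dim with a mean of 7.11 and differed by -0.21. COX7B, another small subunit, could not be read: 16 of 17 arrays shared a value of 2.27 within 0.001, below background.

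In the ATP synthase, 2 genes of the membrane ring lay below both other lines without overlap in Fayoumi. ATP5G1 and ATP5G3 (later ATP5MC1 and ATP5MC3) encode the ring protein, subunit c, whose mature form is the same from both genes in mammals. ATP5G3 ran from 13.46 over 13.56 to 14.15 in broiler, read 13.21, 13.03, 13.37, 13.23 and 13.10 in Fayoumi, and ran from 13.53 over 13.58 to 13.94 in Leghorn. Fayoumi lay below both lines without overlap, with differences of -0.54 (SE 0.137, adjusted p = 0.109) against broiler and -0.45 (adjusted p = 0.227) against Leghorn, short of the threshold. ATP5G1 was likewise below both without overlap, at -0.67 (SE 0.228, adjusted p = 0.290) and -0.73 (adjusted p = 0.259). The third gene of subunit c, ATP5G2, was dim with a mean of 3.23 and showed no such order.

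ATP5O (later ATP5PO) is the subunit at the top of the peripheral stalk that ties the catalytic head to the membrane part. It ran from 13.02 over 13.17 to 13.55 in broiler, read 12.89, 12.79, 13.09, 12.95 and 12.92 in Fayoumi, and ran from 13.22 over 13.29 to 13.53 in Leghorn. Fayoumi 3, at 13.09, reached into the broiler range, and no Fayoumi array reached the Leghorn range. The difference was -0.42 (SE 0.100, adjusted p = 0.086) against Leghorn and -0.34 (adjusted p = 0.188) against broiler. The other stalk subunits ATP5H and ATP5PB stood at -0.49 and -0.28 against broiler and at -0.53 and -0.36 against Leghorn, both below all Leghorn arrays. ATP5B and ATP5F1AZ, the beta and alpha subunits of the catalytic head, stood at -0.50 and -0.34 against broiler, and the central shaft ATP5C1 at -0.36. ATP5I stood at -0.19. The remaining members of the complex (ATP5E, ATP5J, ATP5J2 and ATP5G2) were dim, with differences from -0.18 to 0.068, and ATP5J2 shared a value of 6.59 on 11 arrays. ATP5S, no subunit, stood at -0.73 with an SE of 0.408.

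Taken by whole line, the Fayoumi arrays also varied less among themselves. None of them was among the 5 arrays that stood apart. Over the 32 members above background on all arrays, the SD had a median of 0.106 in Fayoumi, 0.342 in broiler and 0.293 in Leghorn, and it was smallest in Fayoumi for 31 of them. Part of the broiler spread followed the arrays that stood apart: broiler 2, 3 and 4 all exceeded broiler 1, 5 and 6 for 23 of 33 members, by 0.84 for UQCRC2 and ATP5B and by 1.08 for COX8A. In Leghorn the mean of arrays 3 and 6 exceeded that of arrays 2, 4 and 5 for 26 members. On Leghorn 1, which carried the muscle markers, 12 members had their highest level of all 17 arrays, among them CYCS, SDHA, UQCRFS1, COX4I1 and COX7A2L. The part of muscle RNA or of RNA quality in these levels was not tested. For the counts of 31, 23, 26 and 12 members no share of all genes was taken. The component that set the 5 arrays apart held 52.9% of the variance over 19345 probe sets. These counts thus cannot show whether the patterns are particular to these genes. The median of the members on an array ran from -0.36 to -0.11 in Fayoumi, from -0.13 to 0.50 in broiler and from -0.17 to 0.44 in Leghorn, so the lines overlapped on that measure. Broiler arrays other than the 3 that stood apart ran from -0.13 to -0.076, against -0.36 to -0.11 in Fayoumi. The SD on that measure was 0.029 for these broiler arrays, 0.101 for Leghorn 2, 4 and 5 and 0.091 for Fayoumi. These broiler and Leghorn subsets were what remained after arrays lying apart were set aside, and the measure is an array median, not a single gene. These SDs therefore cannot tell whether a small spread is particular to Fayoumi.

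**Figure D4:**
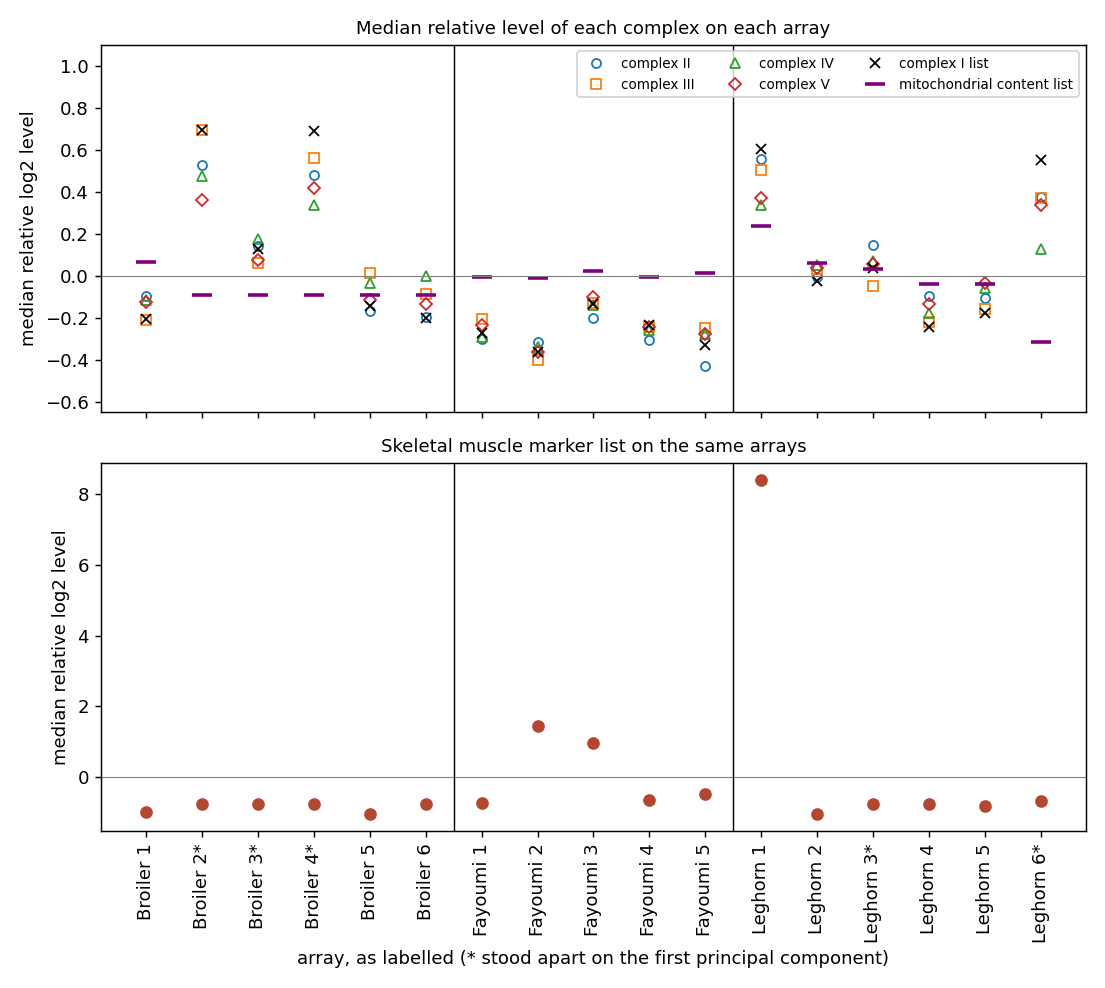
Upper panel: median relative log2 level (each gene minus its mean over 17 arrays) of complexes II, III, IV and V, of the complex I list and of the mitochondrial content list on each array; lower panel: the same for the skeletal muscle markers. All Fayoumi medians of the complexes are below 0, the starred arrays are the upper broiler ones, and Leghorn 1 has both raised complexes and a muscle median of 8.41.

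A gene's probe sets did not all tell the same story. Of the members, 16 had more than 1 probe set, and of their 26 other probe sets 22 exceeded background throughout. Between Fayoumi and broiler 13 of those 22 were lower, while only 9 had the same direction as the brightest one of their gene. The brightest ones of ATP5J2 and UQCRB stood at 0.012 and 0.017, so lower probe sets of these genes counted as the other direction. Of the other probe sets with a mean over 8, those of ATP5O stood at -0.40 and -0.61 and that of UQCR10 at -0.46. The one of UQCRC1 stood at -0.57, of UQCRC2 at -0.92 and of CYCS at 0.68. Dimmer ones reached 0.95 for COX7C and 1.02 for ATP5C1. A dim second probe set of ATP5J2, a small membrane subunit, was called higher in Fayoumi. It read 6.13, 6.36, 6.80, 7.44 and 6.24 there and from 4.15 to 5.51 in broiler, without overlap, a difference of 1.85 (SE 0.364, adjusted p = 0.029), while 3 others of the gene stood at -0.41 to -0.18.

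Lists around the complexes placed these values in the wider mitochondrial programme. Of 33 complex I subunits, which bring electrons from NADH, 30 had the lower mean in Fayoumi than in broiler, with a median of -0.34. Against Leghorn 31 were lower, with a median of -0.38. Of the genes with a mean over 10, 51.4% and 44.8% were lower, a set not matched to this list. Without the 5 arrays that stood apart the count against broiler was 22 with a median of -0.096. Against Leghorn it was 28 with a median of -0.34, and NDUFB7 and NDUFS4 were called lower, where 1.05% of probe sets were called. Leghorn 1, kept there, had a relative level of 0.60 for the complex I list. The other Leghorn arrays kept ran from -0.24 to -0.024, against -0.36 to -0.13 in Fayoumi. NDUFB7, a small membrane-arm subunit, was the 1 called against broiler, at -1.10 (SE 0.236, adjusted p = 0.0492), where 0.714% of probe sets were called. That call was lost without the 5 arrays (adjusted p = 0.0763) and without Leghorn 1 (adjusted p = 0.0574). Without Leghorn 1, 28 complex I genes were lower in Fayoumi than in Leghorn, with a median of -0.30. The 1 called there, NDUFA5, was higher in Fayoumi, at 0.61 (adjusted p = 0.0117), where 0.679% of probe sets were called. Of 29 assembly factors of complexes II to V, 22 were lower than in broiler with a median of -0.25 and none was called. That order rested on the broiler arrays that stood apart: without the 5 arrays 11 were lower and 18 higher, with a median of 0.044, and COX16, an assembly factor of complex IV named here after its value was seen, was called higher at 0.77 (adjusted p = 0.0351). On the 3 other broiler arrays the list's relative level ran from -0.29 to -0.17, below its -0.15 to -0.034 in Fayoumi. TTC19, which clears fragments from complex III, had the smallest p of that list at -0.41 (adjusted p = 0.304). By contrast, 17 mitochondrial proteins outside the chain, such as import receptors, chaperones and fusion proteins, split into 7 lower and 10 higher with a median of 0.069 and none called, and MFN1, a fusion protein of the outer membrane, stood at 0.43 (adjusted p = 0.421). The 18 regulators of mitochondrial gene expression had a median of -0.023 with 11 lower and none called, and PRKAA1, the catalytic subunit of the energy sensor AMPK, stood at 1.27 (adjusted p = 0.152). Differences between these lists were not tested.

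Cell type markers also moved between the lines. Against broiler, 6 of 8 endothelial genes were higher in Fayoumi with a median of 0.37, as large in size as that of the respiratory genes, and 14 of 16 skeletal muscle genes were higher with a median of 1.07. Of the muscle genes, 7 were at background on all broiler arrays and 2 on all Fayoumi arrays. The other lists had medians of -0.052 for adipocytes (4 of 7 lower), -0.081 for macrophages (5 of 10 lower), -0.00079 for T lymphocytes (5 of 9 lower) and 0.15 for erythrocytes (1 of 4 lower). The T lymphocyte median was the value of LCK, which was above background on 0 arrays and is counted among the 5 lower. Without the 5 arrays that stood apart, the endothelial median was 0.045 and the muscle median 1.31.

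LMO2, a regulator of transcription in endothelium and blood, went against its list and was called lower in Fayoumi than in broiler, at -1.11 (adjusted p = 0.00798). TIMD4, by which macrophages bind dying cells, was called higher at 1.63 (adjusted p = 0.0141). Both calls were lost without the 5 arrays, at adjusted p-values of 0.129 and 0.165. ADIPOQ, the adipokine adiponectin, stood at -1.14 (adjusted p = 0.077), GZMA, a granule enzyme of cytotoxic cells, at 2.83 (adjusted p = 0.175) and TNNC1, a muscle troponin, at 3.07 (adjusted p = 0.357). Without Leghorn 1, ADIPOQ was called lower than in broiler (adjusted p = 0.0153) and TNNC1 higher (adjusted p = 0.00558). In that fit 0.868% of probe sets were called. Neither gene was called without the 5 arrays. SLC4A1, the anion exchanger of red cells, stood at -0.36 (adjusted p = 0.646) as the lower one of its list.

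Against Leghorn, 6 of 7 adipocyte genes were higher in Fayoumi with a median of 0.31, or 0.11 without Leghorn 1, and 7 of 8 endothelial genes were higher with a median of 0.24. Medians were -0.021 for macrophages, -0.067 for T lymphocytes, 0.033 for erythrocytes and -0.043 for skeletal muscle, the last 0.87 without Leghorn 1. With all arrays no marker gene was called in that comparison. Without Leghorn 1, ADIPOQ was called lower in Fayoumi than in Leghorn, at -1.18 (adjusted p = 0.0180), where 0.679% of probe sets were called. Whether these markers have a part in the differences of the subunits was not tested.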

How the data were processed

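The authors deposited normalized expression on a log2 scale for each probe set on each array. R 2.13.2, RMA and GCRMA are named per the submitters' processing notes, which do not say which of the last 2 made the values. The lowest value, 2.26, was shared by 37.1% of all values, so differences near it are compressed. Of 38535 probe sets, 37693 chicken ones were tested. Background was the 95th percentile of 80 blank probe sets, 2.29. Symbols came from the platform annotation. A model with the line as its factor was fitted to all 17 arrays with limma 3.58.1 in R 4.3.3, adjusted by Benjamini-Hochberg over all probe sets, with calls at an adjusted p under 0.05. It was tested on simulated data. Relative levels are log2 values minus the gene's mean.

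Named in full were called members and the 2 members of each complex with the smallest adjusted p, and from each list the gene with the smallest. Members and lists were chosen with earlier results of these data known. Alternatives changed the arrays, scaling, filter, variance model and probe set. The number of arrays limits the precision. Promoter and protein sequences were not used here.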

Additional observations from a re-analysis of the deposited data

Results flagged for a closer look

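Dixon's test was run on 112 groups of arrays of a line, of which 97 were groups of a single member. In 13 groups, all of single members, 1 array lay far from the others of its line. The test flags about 1 group in 20 by chance where values spread normally. That rate does not hold for members with tied values, such as COX7B and ATP5J2. On Leghorn 1, the array with the muscle markers, SDHA at 12.86, CYCS at 13.58 and ATP5PB at 13.48 lay above the other Leghorn arrays, which ended at 11.87, 12.43 and 12.93. COX7B, at the floor elsewhere, read 2.35 on broiler 3 and 2.27 on Leghorn 1, the latter apart by less than 0.001. UQCRQ at 11.29 on Fayoumi 2 lay below the other Fayoumi arrays (11.47 to 11.52). COX5A stood at 7.70 on broiler 2, and ATP5E at 6.39 on Leghorn 6. ATP5G2 read 4.57 on broiler 4, 3.48 on Fayoumi 5 and 3.82 on Leghorn 6, each above the rest of its line. ATP5J2, which shared 1 value on most arrays, read 6.36 on broiler 1 and 6.05 on Leghorn 4.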

How the results depend on the processing

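Every alternative run kept the median of all members lower in Fayoumi than in broiler (-0.45 to -0.13) and than in Leghorn (-0.40 to -0.17), and no setting called a member between Leghorn and broiler. Leaving out 1 array at a time kept 1 member called in each Fayoumi comparison and none in the other. Over the whole table these fits called 148 to 613 probe sets between Fayoumi and broiler, 0 to 118 between Leghorn and broiler and 158 to 429 between Fayoumi and Leghorn, where all arrays gave 269, 0 and 236. The highest counts came without broiler 1 (613 and 118) and without Leghorn 2 (429), and without Fayoumi 2 there were 148 against broiler.

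Array weights called 3 members (COX7A2L, SDHD at -0.31 and ATP5G3 at -0.31) against broiler, where 3.5% of all probe sets were called. Against Leghorn they called 4 (COX7A2L, ATP5G1 at -0.48, ATP5G3 at -0.38 and ATP5O at -0.32), where 5.42% of all probe sets were called. Calls thus rose over the whole table, to 1319 and 2042, and to 9 between Leghorn and broiler. With the weights, the median was -0.12 for complex V against broiler and -0.12 for complex IV against Leghorn. The mean of all probe sets of a gene turned cytochrome c to 0.29 against broiler and to 0.078 against Leghorn, and gave -0.21 for complex IV against broiler. Keeping probe sets above background on at least 5 arrays gave 505 and 426 calls in the Fayoumi comparisons, or 2.38% and 2.01% of the 21177 tested.

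Settings added after seeing the data were these. Without the 5 arrays that stood apart, 0 members were called against broiler, with medians of -0.13 for all members, -0.16 for complex II, -0.19 for complex IV and -0.079 for complex V, and COX7A2L at -0.34; 2 were called against Leghorn, with 397 probe sets over the table and 1 between Leghorn and broiler. With their state as a term, 0 members were called against broiler (COX7A2L at -0.41), complex IV stood at -0.15 against Leghorn and the table held 461 calls there. With broiler 1 and Leghorn 2 left out the table counts were 686 between Fayoumi and broiler, 661 between Leghorn and broiler and 544 between Fayoumi and Leghorn. The causes were not tested.

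The labels do not say whether replicate numbers pair the samples. Deviations of same-numbered arrays of different lines correlated from -0.79 to 0.60, with a median of -0.026. Those of arrays with other numbers correlated from -0.80 to 0.80, with a median of -0.00011. These ranges cannot settle whether the samples were paired. With the replicate number as a block, the table held 141 and 139 calls in the Fayoumi comparisons, and COX7A2L stayed called in both (adjusted p = 0.0395 and 0.0214).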
